A study of Trichoderma reesei with 17 samples.

Results

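Xylose reductase (xyl1, protein ID ‘107776’) and xylitol dehydrogenase (xdh1, protein ID ‘81271’) of the filamentous fungus Trichoderma reesei were followed across strain and carbon source. They were chosen by protein ID, the number that ends the RefSeq locus tag (TRIREDRAFT_107776 and TRIREDRAFT_81271), as 2 genes of the 9129 in the count table, and both were among the 8506 genes with enough counts to be tested. The 17 libraries are bulk RNA-seq of mycelia from the Δxyr1 mutant, which lacks the gene for the transcriptional activator XYR1, and from its parental strain QM9414. Each strain was grown with 1% (w/v) cellulose, 1 mM sophorose or 2% (w/v) glucose, with 3 biological replicates a group, except that QM9414 in glucose has 2 here (replicate 2 was not analysed here).

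Per the study's methods and the deposited design text, the RNA of each replicate was pooled over culture times. In cellulose these were 8 and 24 h for Δxyr1, against 24, 48 and 72 h for QM9414. For sophorose the times were 2, 4 and 6 h and for glucose 24 and 48 h, alike in Δxyr1 and QM9414. In cellulose, strain and culture time therefore cannot be told apart, and neither can carbon source and culture time within a strain. The methods place a glycerol pre-culture of 24 h before the cellulose cultures of Δxyr1, while the deposited description places it before sophorose, so which cultures had it is not settled. Since each library is made from whole mycelium, fewer cells using a gene and less transcript per cell cannot be told apart either.

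D-xylose, the main sugar of xylan, enters metabolism in fungi by an oxidoreductive route. Xylose reductase turns it into xylitol with NADPH, xylitol dehydrogenase oxidises xylitol to D-xylulose with NAD+, and xylulokinase phosphorylates D-xylulose for entry into the pentose phosphate pathway. XYR1 is a zinc binuclear cluster protein known as the main activator of the cellulase and xylanase genes of T. reesei, sophorose is a soluble inducer of cellulases, and glucose represses them.

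The 17 libraries held 7014100 to 29056712 counts each. Levels are given as counts per 1000000 (CPM) after scaling by the trimmed mean of M values (TMM), with scaling factors of 0.528 to 1.31. A single gene annotated as a unique protein (48266) took 35.0% of all counts in Δxyr1 sophorose replicate 3 and 8.15% to 24.9% in the Δxyr1 glucose libraries, against 1.40% to 10.1% in all others, and these 4 libraries had the lowest scaling factors. The xyr1 gene itself (TRIREDRAFT_122208) had 103 to 139 counts in Δxyr1 in cellulose, against 9153 to 11010 in QM9414. In sophorose it had 1214 to 1300 counts in Δxyr1, against 28685 to 45128 in QM9414, and in glucose 19, 46 and 74 in Δxyr1, against 102 and 191 in QM9414. Its level followed the strain labels without overlap in every carbon source, although the glucose difference was not called (log2 fold change -1.40, edgeR adjusted p = 0.0643) and counts remained at the locus in Δxyr1, most of all in sophorose.

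The RefSeq annotation of T. reesei assembly version 2.0 places xyl1 at positions 509692 to 511253 of a scaffold that the table does not name, a span of 1562 bases. It places xdh1 at 402101 to 404144, a span of 2044 bases. The flanking gene models of xyl1 end at 507564 and start at 511670, and those of xdh1 end at 399940 and start at 406393, so neither gene overlapped another gene of that annotation.

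The xylose reductase gene xyl1 was high in QM9414 with either inducing carbon source and low in Δxyr1 in cellulose. In cellulose, xyl1 had 15.2, 14.4 and 13.4 CPM in the 3 Δxyr1 libraries, against 173.5, 178.6 and 179.7 CPM in QM9414. In sophorose, it had 59.3, 57.9 and 73.0 CPM in Δxyr1, against 237.0, 285.8 and 234.2 CPM in QM9414. The groups did not overlap in either inducing carbon source, and every QM9414 library stood above every Δxyr1 library. In glucose, it had 17.3, 33.0 and 25.4 CPM in Δxyr1, against 13.5 and 29.6 CPM in QM9414. There the groups overlapped, and the 2 QM9414 glucose libraries were themselves far apart, at 149 and 564 raw counts.

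The xylitol dehydrogenase gene xdh1 moved within a narrower range. In cellulose, xdh1 had 55.9, 59.7 and 49.5 CPM in Δxyr1, against 76.1, 93.9 and 87.2 CPM in QM9414. In sophorose, it had 77.8, 76.0 and 61.7 CPM in Δxyr1, against 74.6, 82.9 and 81.0 CPM in QM9414. The strains did not overlap in cellulose, with at most 59.7 CPM in Δxyr1 against at least 76.1 CPM in QM9414, and overlapped in sophorose. In glucose, it had 25.7, 42.0 and 46.0 CPM in Δxyr1, against 35.2 and 38.7 CPM in QM9414, and again the strains overlapped. In both strains, every cellulose and sophorose library had more xdh1 than every glucose library of that strain.

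**Figure D1:**
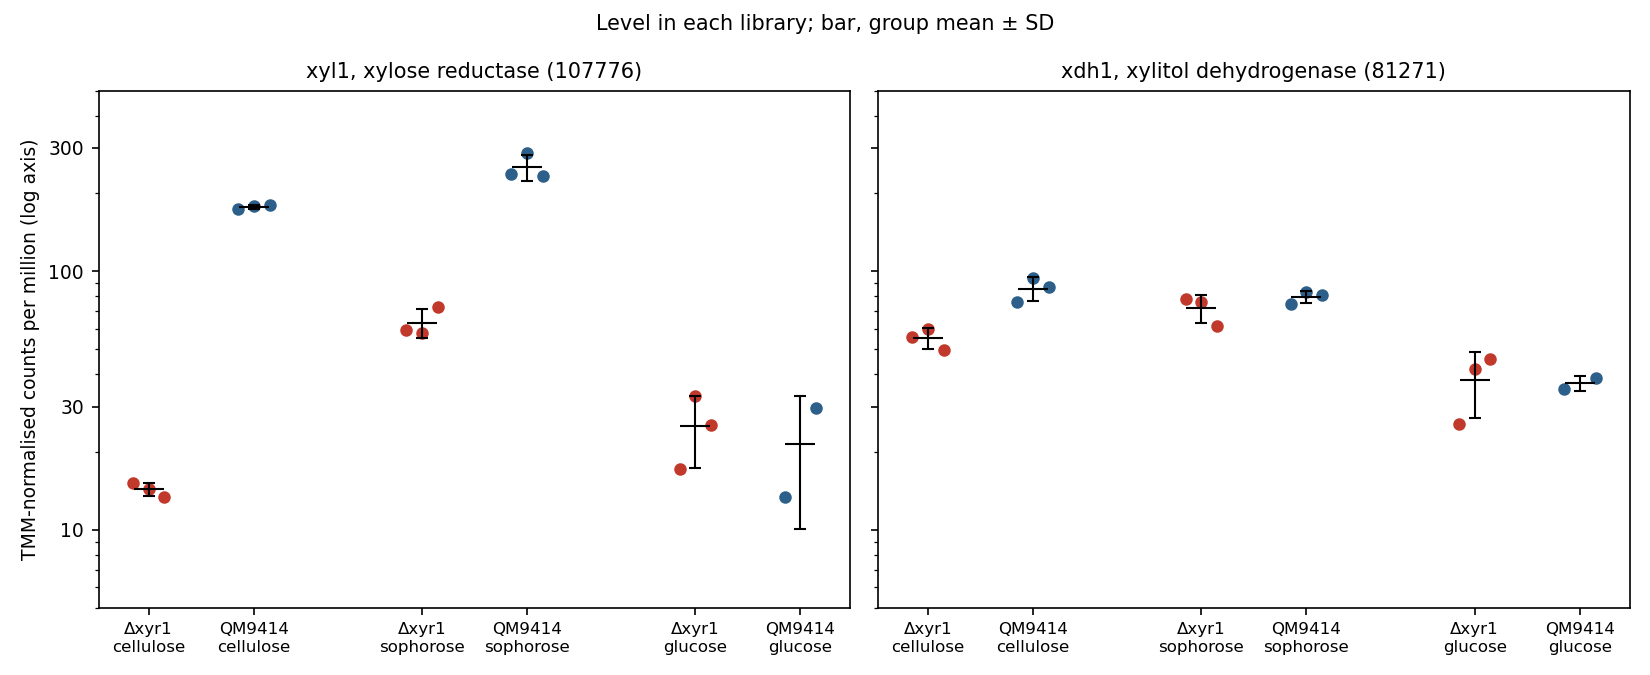
Level of xyl1 (left) and xdh1 (right) in each library, in TMM-normalised CPM on a log axis, by carbon source and strain (Δxyr1 red, QM9414 blue). Points are libraries and bars the group mean ± SD; xyl1 spans 13.4 to 285.8 CPM, while xdh1 stays between 25.7 and 93.9 CPM.

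The first comparison asked how the loss of XYR1 changed the 2 genes in each carbon source. A gene was called changed when its Benjamini-Hochberg adjusted p over all genes tested was at most 0.05 and its log2 fold change at least 1 in size. In cellulose xyl1 fell by 3.63 on the log2 scale in Δxyr1 relative to QM9414 (SE 0.266, 95% interval -4.19 to -3.06, edgeR adjusted p = 4.92e-08), a level 12.4-fold lower in Δxyr1 and the 147th lowest value of the 8506 genes tested. In the same comparison, xdh1 had a log2 fold change of -0.64 (SE 0.175, 95% interval -1.01 to -0.27, edgeR adjusted p = 0.00877), which passed the adjusted p but not the fold threshold. Of all genes tested, 18.6% were called in cellulose.

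In sophorose xyl1 fell by 1.99 on the log2 scale in Δxyr1 (SE 0.244, 95% interval -2.51 to -1.47, edgeR adjusted p = 1.96e-05), a level 3.98-fold lower. The log2 fold change of xdh1 in sophorose was -0.15 (95% interval -0.52 to 0.22, edgeR adjusted p = 0.508). In sophorose 17.2% of genes tested were called. In glucose neither gene was called, with a log2 fold change of 0.21 for xyl1 (95% interval -0.37 to 0.79, edgeR adjusted p = 0.690) and of 0.03 for xdh1 (95% interval -0.39 to 0.45, edgeR adjusted p = 0.947). Only 2.60% of genes tested were called in glucose, and the value of xyl1 there lay between -0.24 and 0.94 as each glucose library was left out. Its sign turned without QM9414 glucose replicate 1 (-0.24) and without Δxyr1 glucose replicate 2 (-0.0037).

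**Figure D2:**
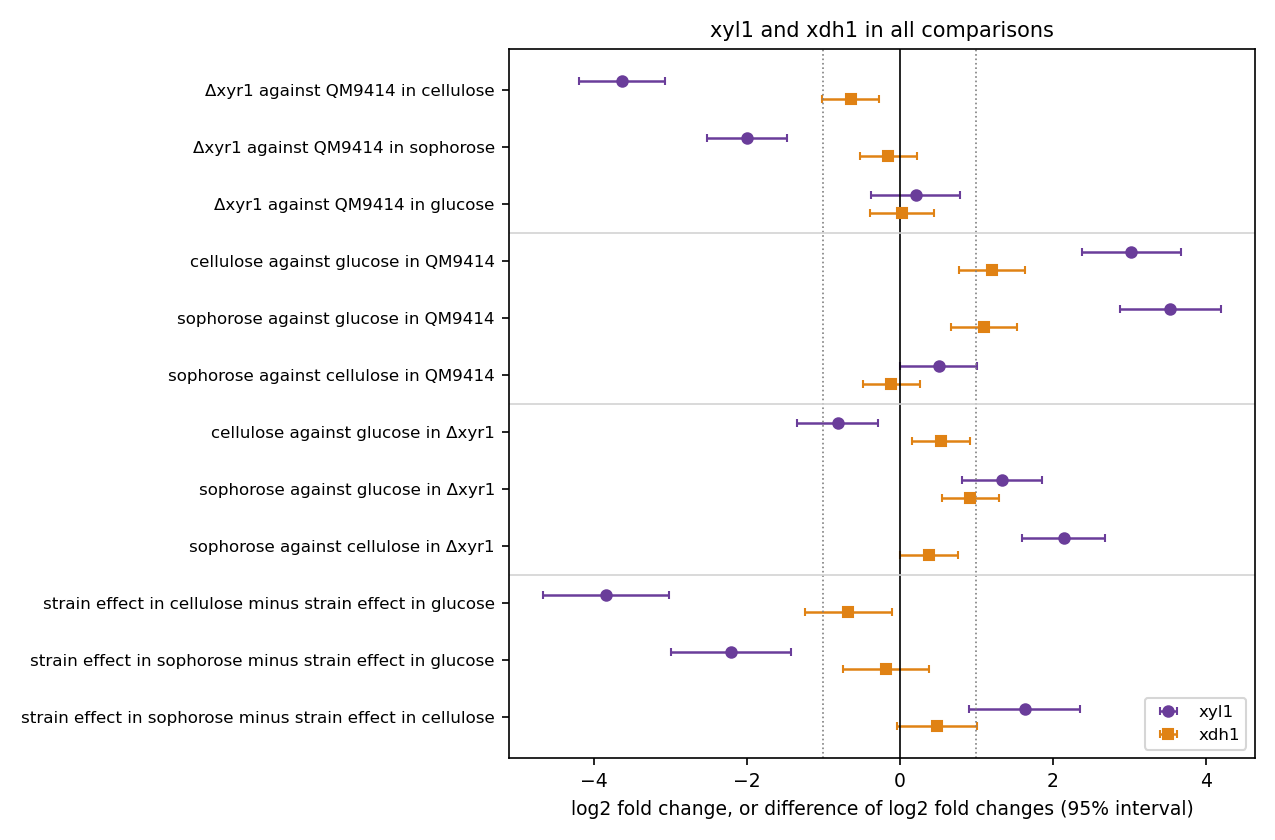
Log2 fold changes of xyl1 (circles) and xdh1 (squares) with 95% intervals in the 12 comparisons, from the edgeR fit over all libraries; the last 3 lines are differences between log2 fold changes. Dotted lines mark a log2 fold change of 1 in either direction; the strain effect on xyl1 runs from -3.63 in cellulose to 0.21 in glucose, and that on xdh1 from -0.64 to 0.03.

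The next comparison asked whether the genes answered to carbon source in the parental strain. In QM9414 both genes were higher in the inducing carbon sources than in glucose, xyl1 by more. In cellulose against glucose xyl1 rose by 3.03 on the log2 scale (SE 0.302, edgeR adjusted p = 6.11e-07), or 8.17-fold, and xdh1 rose by 1.21 (SE 0.203, edgeR adjusted p = 1.20e-04), or 2.32-fold. In this comparison 32.8% of genes tested were called. In sophorose against glucose xyl1 rose by 3.54 (SE 0.310, edgeR adjusted p = 1.13e-07), or 11.6-fold, and xdh1 rose by 1.10 (SE 0.203, edgeR adjusted p = 2.13e-04), or 2.15-fold, with 38.8% of genes tested called. The size of the xyl1 response rested on the 2 glucose libraries, and without QM9414 glucose replicate 3 it became 3.71 in cellulose and 4.28 in sophorose, and without QM9414 glucose replicate 1 it became 2.58 and 3.09. Between the inducing carbon sources neither gene was called, among 17.4% of genes tested: sophorose against cellulose gave 0.51 for xyl1 (95% interval 0.01 to 1.01, edgeR adjusted p = 0.103) and -0.11 for xdh1 (95% interval -0.48 to 0.26, edgeR adjusted p = 0.666).

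In Δxyr1, xyl1 was no higher in cellulose than in glucose and was higher in sophorose than in either. Cellulose against glucose gave a log2 fold change of -0.81 for xyl1 in Δxyr1 (SE 0.250, edgeR adjusted p = 0.00917), under the fold threshold and with the opposite sign to that in QM9414. This value depended on scaling, being 0.0106 without scaling factors, and was called at -1.03 without Δxyr1 glucose replicate 1. For xdh1 the same comparison gave 0.54 (SE 0.177, edgeR adjusted p = 0.0127), also under the fold threshold, and 1.35, a called change, without scaling factors. In this comparison 44.2% of genes tested were called.

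In sophorose against glucose, xyl1 rose by 1.34 in Δxyr1 (SE 0.244, edgeR adjusted p = 2.00e-04), or 2.52-fold. The value for xdh1 was 0.93 (SE 0.177, edgeR adjusted p = 2.95e-04), or 1.90-fold, just under the fold threshold. It passed that threshold at 1.02 without Δxyr1 sophorose replicate 3, at 1.02 without Δxyr1 glucose replicate 2 and at 1.13 without Δxyr1 glucose replicate 3. In this comparison 36.0% of genes tested were called. In sophorose against cellulose xyl1 rose by 2.14 in Δxyr1 (SE 0.253, edgeR adjusted p = 5.52e-06), or 4.42-fold, with 25.3% of genes tested called, while xdh1 had 0.38 (95% interval 0.01 to 0.76, edgeR adjusted p = 0.0745). Within the mutant, the sophorose libraries thus held the most xyl1.

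The difference between strain effects was tested as an interaction in the same fit. For xyl1 the strain effect in cellulose was lower than that in glucose by a log2 difference of -3.84 (SE 0.385, edgeR adjusted p = 5.16e-06), and the strain effect in sophorose lower than that in glucose by -2.20 (SE 0.369, edgeR adjusted p = 0.00120). Of genes tested, 19.1% and 12.0% were called in these comparisons. Without QM9414 glucose replicate 3 the values were -4.51 and -2.91, and without QM9414 glucose replicate 1 they were -3.39 and -1.76. The fall of xyl1 in Δxyr1 was smaller in sophorose than in cellulose, a signed difference of 1.63 (SE 0.341, edgeR adjusted p = 0.00132). That comparison called 28.6% of genes tested, and the call of xyl1 was lost without scaling factors (edgeR adjusted p = 0.0531). None of the 3 interactions was called for xdh1, whose values were -0.67 (95% interval -1.23 to -0.10), -0.18 (95% interval -0.74 to 0.38) and 0.49 (95% interval -0.03 to 1.02), at edgeR adjusted p = 0.0697, 0.671 and 0.117.

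Ordered by mean level, xyl1 ran from QM9414 in sophorose (252 ± 29.0 CPM, SD, n = 3) and QM9414 in cellulose (177 ± 3.34 CPM, n = 3) over Δxyr1 in sophorose (63.4 ± 8.35 CPM, n = 3) to the 3 lowest groups. These were Δxyr1 in glucose (25.2 ± 7.85 CPM, n = 3), QM9414 in glucose (21.5 ± 11.4 CPM, n = 2) and Δxyr1 in cellulose (14.3 ± 0.870 CPM, n = 3). Neighbours in this order differed beyond their spread on either side of Δxyr1 in sophorose, by 1.48 from QM9414 in cellulose and by 1.34 from Δxyr1 in glucose on the log2 scale. At the top the libraries did not overlap, but the log2 difference of 0.51 was not called. The 3 lowest groups overlapped in turn, and the last step, QM9414 in glucose over Δxyr1 in cellulose, had a log2 difference of 0.60 (95% interval 0.01 to 1.18, edgeR adjusted p = 0.0683). The order was read from the same values, so these neighbour tests only describe it.

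For xdh1 the order was QM9414 in cellulose (85.7 ± 9.00 CPM, SD, n = 3), QM9414 in sophorose (79.5 ± 4.36 CPM, n = 3), Δxyr1 in sophorose (71.8 ± 8.84 CPM, n = 3) and Δxyr1 in cellulose (55.0 ± 5.12 CPM, n = 3). The strains in glucose came last, at 37.9 ± 10.8 CPM (n = 3) in Δxyr1 and 37.0 ± 2.50 CPM (n = 2) in QM9414. No neighbours differed by both thresholds. The top 3 groups overlapped in turn, and the step nearest to a call was that from Δxyr1 in cellulose to Δxyr1 in glucose, given above. In both strains the level of xdh1 was lowest in glucose.

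The counts of the 2 genes can also be compared within a library, where scaling factors cancel. The ratio of xyl1 to xdh1 counts was 0.273, 0.242 and 0.272 in Δxyr1 in cellulose, against 2.28, 1.90 and 2.06 in QM9414. In sophorose it was 0.762, 0.761 and 1.18 in Δxyr1, against 3.18, 3.45 and 2.89 in QM9414. In glucose it was 0.673, 0.785 and 0.553 in Δxyr1, against 0.383 and 0.763 in QM9414. Thus xyl1 outnumbered xdh1 in all 6 QM9414 libraries with an inducer, and xdh1 outnumbered xyl1 in all other libraries but Δxyr1 sophorose replicate 3, the library with the highest share of 48266.

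On the log2 scale the mean ratio was -1.93 ± 0.0978 in Δxyr1 in cellulose, against 1.05 ± 0.131 in QM9414 (SD, n = 3 each), a difference of -2.99. In sophorose it was -0.18 ± 0.367 in Δxyr1, against 1.66 ± 0.127 in QM9414 (SD, n = 3 each), a difference of -1.84. In glucose it was -0.59 ± 0.254 in Δxyr1 (n = 3), against -0.89 ± 0.704 in QM9414 (n = 2), a difference of 0.30. In an exact two-sided permutation test the strain difference had p = 0.1 in cellulose and in sophorose and p = 0.6 in glucose, and 0.1 is the smallest p these group sizes allow. Of the 9 comparisons of this ratio, 7 reached that p, with a Benjamini-Hochberg adjusted value of 0.129 over the 9 (exact permutation test). The exceptions were the strains in glucose and sophorose against glucose in Δxyr1, where the log2 difference was 0.41 (exact permutation p = 0.3).

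**Figure D3:**
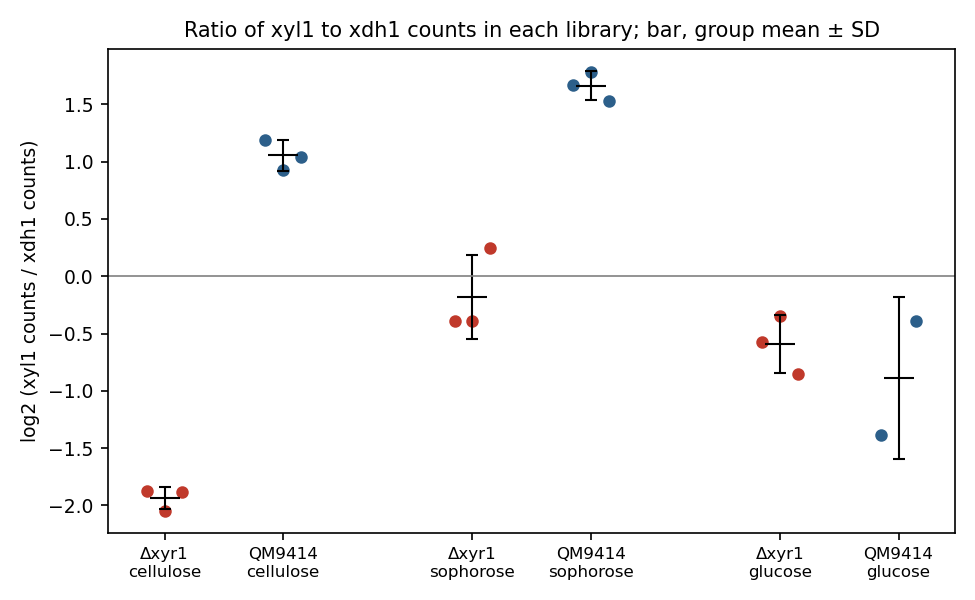
Log2 ratio of xyl1 to xdh1 counts in each library, by carbon source and strain (Δxyr1 red, QM9414 blue); bars are the group mean ± SD and the line at 0 marks equal counts. The 6 QM9414 libraries with an inducer lie between 0.93 and 1.78, and the 3 Δxyr1 cellulose libraries between -2.05 and -1.88.

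Since xdh1 has the longer gene span, levels of the pair were also set side by side per kilobase of RefSeq span, introns included. In cellulose the level of xyl1 was 9.19 ± 0.557 CPM per kilobase in Δxyr1, against 113 ± 2.14 in QM9414, and that of xdh1 was 26.9 ± 2.51 in Δxyr1, against 41.9 ± 4.40 in QM9414 (SD, n = 3 each). In sophorose xyl1 had 40.6 ± 5.35 CPM per kilobase in Δxyr1, against 162 ± 18.6 in QM9414, and xdh1 had 35.1 ± 4.33 in Δxyr1, against 38.9 ± 2.13 in QM9414 (SD, n = 3 each). Per length, xyl1 therefore stood above xdh1 in QM9414 with both inducers and below it in Δxyr1 in cellulose. In Δxyr1 in sophorose the mean of xyl1 was the higher per length, with SD ranges that overlapped, whereas by counts xdh1 was ahead in all but replicate 3. In glucose xyl1 had 16.1 ± 5.02 CPM per kilobase in Δxyr1 (SD, n = 3), against 13.8 ± 7.29 in QM9414 (SD, n = 2), and xdh1 had 18.5 ± 5.26 in Δxyr1, against 18.1 ± 1.22 in QM9414, so that the pair lay within its spread there.

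The steps on either side of the pair were examined in the other genes annotated for pentose and polyol metabolism, 8 in number and all tested. In cellulose 0 of the 8 rose and 2 fell in Δxyr1, with a median log2 fold change of -0.63, against -0.02 over all genes. In sophorose 1 rose and 1 fell, with a median of 0.18, against 0.03 over all genes, and in glucose 0 rose and 1 fell, with a median of 0.49, against a median near 0 over all genes. The members of this list were picked by product name, and the shares called can be read against the 18.6%, 17.2% and 2.60% given above.

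Xylulokinase (TRIREDRAFT_123288), the enzyme that follows xylitol dehydrogenase, fell in Δxyr1 by 1.88 on the log2 scale in cellulose (SE 0.137, edgeR adjusted p = 4.56e-08) and fell by 2.08 in sophorose (SE 0.136, edgeR adjusted p = 3.60e-08). Its level was 18.2 ± 2.15 CPM in Δxyr1 in cellulose, against 66.9 ± 4.74 CPM in QM9414, and 18.5 ± 2.88 CPM in Δxyr1 in sophorose, against 78.1 ± 5.14 CPM in QM9414 (SD, n = 3 each). Unlike xyl1 and xdh1, it was not higher with an inducer than with glucose in QM9414, where it had 87.6 ± 11.2 CPM (SD, n = 2). In glucose it was at 74.3 ± 4.07 CPM in Δxyr1, and the strain difference there was not called. Of the 3 steps of the route, the middle one, xdh1, thus had the smallest strain difference in both inducing carbon sources.

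The L-arabinitol dehydrogenase gene lad1 (TRIREDRAFT_49753), which acts in the catabolism of L-arabinose, fell by 1.32 in Δxyr1 in cellulose (SE 0.277, edgeR adjusted p = 0.00136). It had 15.4 ± 3.52 CPM in Δxyr1 in cellulose, against 38.6 ± 4.90 CPM in QM9414 (SD, n = 3 each), and was not called between strains in sophorose, at a log2 fold change of -0.12, or in glucose, at 0.89. The mannitol dehydrogenase gene lxr1 (TRIREDRAFT_74194) rose by 1.96 in Δxyr1 in sophorose (SE 0.535, edgeR adjusted p = 0.00788) and had -0.68 in cellulose and 0.79 in glucose, neither called. The sorbitol dehydrogenase gene (TRIREDRAFT_76784) fell by 1.42 in Δxyr1 in glucose (SE 0.208, edgeR adjusted p = 0.00294), its only strain difference called.

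The remaining 4 genes of the list were not called between strains in any carbon source. The gene annotated as xylose isomerase (TRIREDRAFT_103350), an enzyme that in bacteria converts xylose to xylulose in 1 step, had strain differences near 0, at log2 fold changes of 0.04 with cellulose, -0.02 with sophorose and 0.06 with glucose. In QM9414 it fell by 1.06 in cellulose and by 1.17 in sophorose relative to glucose, the opposite direction to xyl1 and xdh1. The D-arabinitol dehydrogenase gene (TRIREDRAFT_65433) had strain differences of -0.23, 0.39 and 0.66 in cellulose, sophorose and glucose. The phosphoketolase genes, whose enzymes split xylulose 5-phosphate, had -0.59, 0.75 and 0.32 (TRIREDRAFT_61553) and -1.24, 0.70 and 0.86 (TRIREDRAFT_77481) in the same order of carbon sources.

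Of 10 genes annotated to the pentose phosphate pathway, into which xylulose 5-phosphate feeds, 0 rose and 3 fell in Δxyr1 in cellulose, or 3 of 10 against the 18.6% of all genes tested that were called, with a median log2 fold change of -0.82, against -0.02 over all genes. A transketolase gene (TRIREDRAFT_2211) fell by 3.58 (SE 0.359, edgeR adjusted p = 1.32e-06), a transketolase-like gene (TRIREDRAFT_120635) by 1.13 (SE 0.194, edgeR adjusted p = 2.74e-04) and a transaldolase gene (TRIREDRAFT_123026) by 1.02 (SE 0.283, edgeR adjusted p = 0.00965). Without scaling factors only 1 of these calls, that of the first, remained. In sophorose 1 rose and 1 fell: the first transketolase gene fell by 5.43 and the gene for ribulose-phosphate epimerase (TRIREDRAFT_56631) rose by 1.49, and the transaldolase gene had 0.77, not called. These 2 of 10 stand against 17.2% of all genes called there. The median in sophorose was 0.30, against 0.03 over all genes, and in glucose none of the 10 was called.

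TRIREDRAFT_2211 rested on few counts in Δxyr1, 9 over the 3 cellulose libraries and 11 over the 3 sophorose libraries, against 158 and 496 in QM9414. Like xyl1, it rose in QM9414 in cellulose and in sophorose relative to glucose, by 3.20 and 5.01, from 10 counts over the 2 glucose libraries. The genes for the oxidative, NADPH-forming steps, zwf1 (TRIREDRAFT_75769) and pgd1 (TRIREDRAFT_72685), went the other way in QM9414. Relative to glucose they fell by 1.72 and 1.77 in cellulose and by 2.03 and 2.19 in sophorose. This was not particular to the oxidative steps, as TRIREDRAFT_120635 fell by 1.44 and 1.48. Of the 10 genes, 1 rose and 5 fell in QM9414 in cellulose against glucose, where 32.8% of all genes were called. In sophorose against glucose 2 rose and 6 fell, where 38.8% were called. The strain differences of zwf1 (-0.81) and pgd1 (-0.80) in cellulose stood under the fold threshold.

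The enzymes upstream of the pair, which release xylose and arabinose from xylan, had the lowest median strain difference of the 3 lists in both inducing carbon sources. The list held the GH10, GH11, GH43, GH54, GH62 and GH67 genes among the carbohydrate-active enzymes that the study analysed, with the β-xylosidase gene BXL1 added. It need not hold every xylan-degrading gene. Of these 9 genes, 0 rose and 8 fell in Δxyr1 in cellulose, with a median log2 fold change of -7.89, against -0.02 over all genes, of which 18.6% were called. In sophorose 0 rose and 7 fell, or 6 without Δxyr1 sophorose replicate 3, with a median of -5.27, against 0.03 over all genes, of which 17.2% were called. In glucose 1 rose and 0 fell, with a median of -0.03, while 2.60% of all genes were called. This was the α-L-arabinofuranosidase gene ABF3 (TRIREDRAFT_55319, log2 fold change 1.24, SE 0.270, edgeR adjusted p = 0.0168), whose call was lost without scaling factors. Leaving out Δxyr1 glucose replicate 1 raised the calls over all genes above that 2.60%, with the counts given at the end of the report. In that fit 1 more gene of each of the 3 lists was called higher in glucose: lad1, TRIREDRAFT_123026 and TRIREDRAFT_3739. The last of these lay near the floor, with 5 counts over all 3 Δxyr1 glucose libraries and 0 in QM9414. Taking QM9414 at 3 counts over the group gave it a log2 value of 0.26 with all libraries. The largest differences in cellulose were those of the xylanase genes XYN3 (TRIREDRAFT_120229, -10.28, SE 0.588) and XYN2 (TRIREDRAFT_123818, -8.94, SE 0.534) and of the β-xylosidase gene BXL1 (TRIREDRAFT_121127, -8.38, SE 0.508). XYN3 had 16 counts over the 3 Δxyr1 cellulose libraries, against 28746 over the 3 of QM9414. In sophorose the largest were those of BXL1 (-7.87, SE 0.481), the α-glucuronidase gene GLR1 (TRIREDRAFT_72526, -7.74, SE 0.457) and XYN3 (-6.20, SE 0.508). From these same libraries, the study had already reported BXL1 and GLR1 among its most XYR1-dependent genes in sophorose, and XYN3 in cellulose. BXL1 was added to the list by ID, so its rank and its part in the counts above are no independent result.

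The strain effects on xyl1 were thus smaller in size than the median of the xylan-degrading genes in both inducing carbon sources, and those on xdh1 smaller still. In QM9414, 8 of the 9 xylan-degrading genes rose in cellulose relative to glucose, with a median of 8.76, and 1 fell, where 32.8% of all genes were called and their median was -0.01. In sophorose against glucose 7 rose, with a median of 6.84, where 38.8% of all genes were called and their median was -0.02. One gene of the list (TRIREDRAFT_3739) had 0 counts in QM9414 in glucose, and taking it at the bound set by 3 counts over that group left both medians as they were.

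The gene annotated as a xylose transporter (TRIREDRAFT_104072) would act just before xyl1. This gene was taken from the study's list of transporters modulated between the strains in these same data. The strain tests on it therefore describe a gene already picked for differing, and are no independent result. It fell by 4.45 in Δxyr1 in cellulose (SE 0.314, edgeR adjusted p = 3.13e-08) and rose by 1.33 in sophorose (SE 0.233, edgeR adjusted p = 3.69e-04), with the difference between these strain effects called at 5.79 (SE 0.394, edgeR adjusted p = 5.72e-08). Its level was 1.09 ± 0.529 CPM in Δxyr1 in cellulose, against 22.5 ± 2.25 CPM in QM9414, and 42.2 ± 10.1 CPM in Δxyr1 in sophorose, against 16.8 ± 3.06 CPM in QM9414 (SD, n = 3 each). In glucose it had 2 counts over 3 Δxyr1 libraries, against 3 counts over 2 QM9414 libraries, too few for a ratio. A strain effect higher in sophorose than in cellulose was not particular to this gene. It was called for 3 of the 8 pentose and polyol genes, 6 of the 10 pentose phosphate genes (1 lower) and 4 of the 9 xylan-degrading genes. Without scaling factors these counts were 1, 2 and 4. With TMM scaling 28.6% of all 8506 genes tested were called in this comparison, 1432 of them higher and 1001 lower.

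**Figure D4:**
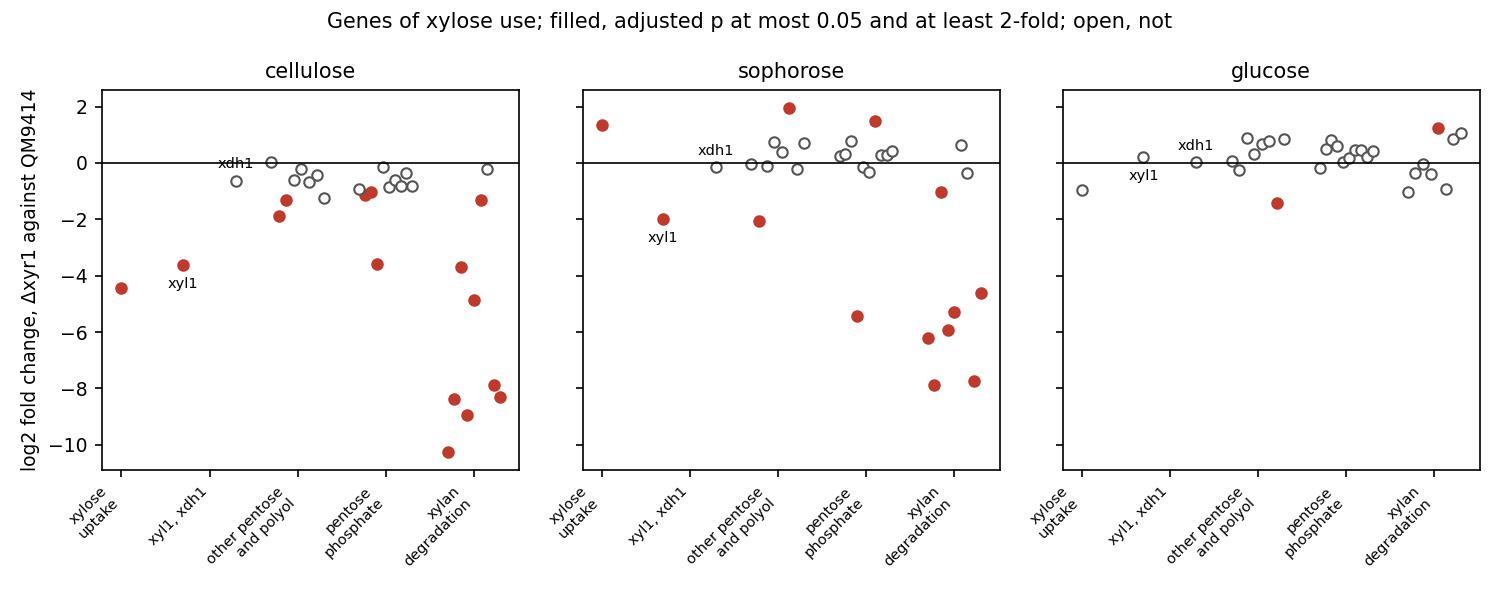
Log2 fold change of Δxyr1 against QM9414 (vertical axis) in each carbon source for the xylose transporter gene, xyl1 and xdh1, and the 3 gene lists (horizontal axis); filled points passed both thresholds. In cellulose xyl1, at -3.63, lies between the transporter at -4.45 and the other pentose genes, none of which is below -1.88; the gene TRIREDRAFT_3739, without counts in QM9414 in glucose, is left out of the glucose panel.

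The genes whose levels were most like each member were ranked by Pearson's r of log2(CPM + 1) with it over the 17 libraries, which share strain and carbon source, so that r is a description and gives no p. Closest to xyl1 was xyr1 itself (r = 0.952), whose own gene is deleted in the mutant. It was followed by genes for a GH27 α-galactosidase (TRIREDRAFT_55999, r = 0.943), the β-galactosidase BGA1 (TRIREDRAFT_80240, r = 0.937), an unknown protein (TRIREDRAFT_76659, r = 0.937) and the exo-polygalacturonase PGX1 (TRIREDRAFT_112140, r = 0.933). None of these 5 stayed among the closest 5 by Spearman's rho or over the 6 group means, and 4 did without QM9414 cellulose replicate 1. All 5 fell in Δxyr1 in both inducing carbon sources, as xyl1 did, and BGA1 fell by 2.45 in cellulose and fell by 3.11 in sophorose. The ranking used these same libraries, so this likeness was built into the choice and is no separate result. Of all 8506 genes tested, 879 were called lower in Δxyr1 in cellulose and 550 in sophorose.

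Closest to xdh1 were a secreted unknown protein (TRIREDRAFT_108655, r = 0.956), the GH2 exo-β-D-glucosaminidase GLS93 (TRIREDRAFT_77299, r = 0.954), 2 unknown proteins (TRIREDRAFT_29770, r = 0.951 and TRIREDRAFT_65483, r = 0.948) and the glucose permease gene hxt1 (TRIREDRAFT_22912, r = 0.949). Of these 5, 4 stayed by Spearman's rho, 2 over the group means and all 5 without QM9414 cellulose replicate 1. None of the 5 was called between strains in sophorose, as xdh1 was not, where 17.2% of all genes tested were called. In cellulose 4 of them fell in Δxyr1, of which hxt1 fell by 4.28, where xdh1 missed the fold threshold and 18.6% of all genes tested were called. These 5 were also picked over the same libraries, so their likeness to xdh1 is no separate result. The correlation between xyl1 and xdh1 themselves was r = 0.784 (Spearman's rho = 0.772). Among the 8505 other genes, xdh1 ranked 193 for likeness to xyl1, and xyl1 ranked 551 for likeness to xdh1.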

How the data were processed

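Total RNA of mycelia was sequenced as paired-end reads, and per the study's methods only unique alignments to the T. reesei version 2.0 genome were kept. The submitters' processing notes name TopHat2 2.0.4, SAMtools 0.1.19, HTSeq 0.6.0 and DESeq2 1.6.3. The raw counts per gene deposited by the authors were used as deposited. Their normalised counts, and their own columns of log2 fold changes and adjusted p-values, were not used, and whether counting used strand is not given in the sources used here. Gene products came from the deposited description (8567 genes) and names from RefSeq (9072 of 9129 IDs matched).

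All 17 libraries in 6 groups entered 1 edgeR 4.0.16 quasi-likelihood fit (R 4.3.3) with TMM scaling and no covariate, over the 8506 genes that reached 10 counts in 2 or more libraries. The common biological coefficient of variation was 0.205. Contrasts gave 12 comparisons, with Benjamini-Hochberg adjustment over all genes, and a call needed adjusted p of at most 0.05 and an absolute log2 fold change of 1 or more, thresholds taken from the study's methods. SE is the log2 fold change divided by the square root of F. For the ratio of xyl1 to xdh1 counts, 0.5 was added to each count and groups were compared by an exact two-sided permutation test. The scripts were tested on simulated data. Counting error and replicate spread both enter the fit, and the replicates, named biological by the study, carry no separate label of culture.

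Named were both members, xyr1, every gene of the pentose and polyol list, up to 3 genes of each other list with the largest log2 fold change in the comparison described, and the 5 genes most like each member. The gene 48266 and TRIREDRAFT_3739 were singled out after their values were seen. Alternatives were DESeq2 1.42.0, RLE, upper-quartile or no scaling factors, no or a stricter filter, the compared groups alone, a replicate block, each library left out and adjusted p alone. Fits without scaling factors and with 48266 left out of the totals, and the gene lists under other scaling or without single libraries, were added after the data were seen. The members and lists were chosen with earlier results of these data known.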

Additional observations from a re-analysis of the deposited data

Results flagged for a closer look

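The strain effect on xyl1 was flagged because it differed between carbon sources by the test of the difference itself. The effect of Δxyr1 against QM9414 in cellulose minus that in glucose was -3.84 on the log2 scale (SE 0.385, edgeR adjusted p = 5.16e-06). The effect in sophorose minus that in glucose was -2.20 (SE 0.369, edgeR adjusted p = 0.00120), and the effect in sophorose minus that in cellulose was 1.63 (SE 0.341, edgeR adjusted p = 0.00132). The same differences for xdh1 did not pass. The first and the last of these values both contain the strain effect in cellulose, where strain and culture time cannot be told apart. In sophorose and in glucose the culture times were the same in both strains. Whether the glycerol pre-culture came before the cellulose or the sophorose cultures is not settled, so the values that contain sophorose may also include it. Groups of 2 or 3 libraries are too small for a check on single outlying samples.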

How the results depend on the processing

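Over 33 results (both genes in 12 comparisons and the ratio in 9), 479 alternative values were computed, of which 448 were the same and 462 kept their direction. For a gene, the same meant an unchanged direction and call. For the ratio, which has no call, it meant an unchanged direction and a shift under the pooled SD of the groups compared. The called strain effects on xyl1 in cellulose and sophorose kept their call throughout, with ranges of -3.67 to -3.41 and -2.43 to -1.90. The cause of the changes listed here was not tested. Without scaling factors, the median of all genes moved by -0.597 to 0.835. On that scale the strain effect in glucose was -0.34 for xyl1 and -0.54 for xdh1, xdh1 in sophorose against cellulose was 0.00222 in QM9414 and -0.0494 in Δxyr1, and xyl1 in cellulose against glucose in Δxyr1 was 0.0106. The xdh1 interactions became 0.0907, 0.0391 and -0.0516, xdh1 in Δxyr1 was called in cellulose (1.35) and in sophorose (1.30) against glucose, and the xyl1 interaction of sophorose with cellulose was 0.999 and not called. With 48266 also left out of the totals, the glucose strain effects were -0.13 and -0.34, and the 2 called xdh1 values 1.18 and 1.23. Upper-quartile factors gave 1.01 for xdh1 in sophorose against glucose in Δxyr1, a call.

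With adjusted p alone as the criterion, xdh1 was also called between strains in cellulose (-0.64) and, in Δxyr1, in cellulose against glucose (0.54) and sophorose against glucose (0.93), and xyl1 in cellulose against glucose in Δxyr1 (-0.81). Leaving out 1 library gave -1.03 to -0.56 for xyl1 in cellulose against glucose in Δxyr1, 0.71 to 1.13 for xdh1 in sophorose against glucose in Δxyr1, and, for the strains in glucose, -0.24 to 0.94 for xyl1, -0.13 to 0.29 for xdh1 and -0.20 to 0.79 for the log2 ratio. The group order held in full or in 4 of 6 places except without scaling factors, where 3 places held for xyl1 and 0 for xdh1. No called gene of the lists changed sign under another scaling.

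Deviations from the group means had a median r of 0.056 over 40 pairs of same-numbered libraries, with 17 over 0.1. Over 80 pairs with different numbers the median r was -0.012, with 20 over 0.1. Same-numbered libraries thus leaned weakly towards deviating together. Numbers were not taken as pairing in the main fit, and a replicate block was run as an alternative. The replicate block turned xdh1 between strains in glucose to -0.0357, changed no other direction and no call, and gave -3.63 for xyl1 in cellulose and 1568 genes called there, against 1584.

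Counts of genes called moved by over 1.5 times for the strains in glucose, to 1036 without scaling factors against 221, 426 with 48266 also left out and, as libraries were left out, 44 (without QM9414 glucose replicate 1), 95 (without Δxyr1 glucose replicate 3) and 451 (without Δxyr1 glucose replicate 1). With those groups alone edgeR called 0 there, with 1213 of 8021 genes at unadjusted p under 0.05, and DESeq2 over all libraries called 306. The cellulose interaction with glucose came to 2872 and 2625 in the same scalings, against 1628, and that of sophorose with glucose to 449 without scaling factors, against 1024. With adjusted p alone the counts in the order of the 12 comparisons were 3450, 3906, 566, 4761, 5247, 3142, 5971, 5313, 4699, 2481, 1560 and 3798, against 1584, 1466, 221, 2794, 3301, 1481, 3760, 3064, 2156, 1628, 1024 and 2433. Among calls, the share that was higher in Δxyr1 was 57.6%, 22.3% and 5.89% in cellulose, sophorose and glucose without scaling factors, against 44.5%, 62.5% and 72.4% with TMM. Depth limits the genes with few counts in Δxyr1, such as TRIREDRAFT_2211, more than xyl1 or xdh1, which had at least 128 counts in every library.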
